A study of Mus musculus with 7 samples.

Results

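Taf10 and the 3 genes whose proteins pair with it were followed across 7 RNA-seq libraries of mouse fetal liver. The set holds 4 genes, Taf10, Taf3, Taf8 and Supt7l, chosen by name from the known pairs and not by their values. All 4 were among the 39017 genes of the count files, and all 4 were among the 15800 genes that passed the filter on low counts. Livers were taken at stage E12.5 from C57BL/6 embryos, and libraries were made from total RNA of liver cell suspensions. The 2 TAF10KO embryos were lox/lox for Taf10 by their titles, although the series text describes lox against KO, and carried EpoCre. This is Cre recombinase under control of Epor, the gene of the erythropoietin receptor. The 3 TAF10HET embryos also had EpoCre, with Taf10 lox/wt in replicate 1 and wt/ko in replicates 2 and 3. The 2 WT embryos were lox/lox without Cre, so WT differs from both other groups in the Cre as well as in Taf10. Epor is known as a gene of erythroid cells, and which cells of these livers had lost Taf10 was not measured. Each title holds a date code. The first was shared by replicate 1 of each group, and the second by TAF10KO replicate 2, TAF10HET replicates 2 and 3 and WT replicate 2. The labels do not say what the code dates.

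TFIID is the general transcription factor that binds promoters and helps to place RNA polymerase II at the start site. SAGA is a coactivator complex that acetylates histone H3 and removes ubiquitin from histone H2B. Several subunits of both complexes hold a histone fold, a helical domain first described in the core histones, through which they join in pairs. TAF10 has no histone-fold partner of its own kind. It pairs with TAF3 or TAF8 in TFIID and with SUPT7L in SAGA, and it depends on these partners to enter the nucleus. TAF3 also reads trimethylated lysine on histone H3 at active promoters, TAF8 brings TAF10 together with TAF2 during the assembly of TFIID, and SUPT7L is a core scaffold subunit of SAGA. The study's title ties TAF10 to GATA1, the master transcription factor of red cell formation.

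The 4 genes lie on 4 chromosomes, all on the minus strand of mm10 in GENCODE M21. Taf10 (ENSMUSG00000043866) spans chromosome 7, 105739393 to 105744361. Taf3 (ENSMUSG00000025782) spans chromosome 2, 9914552 to 10048596. Taf8 (ENSMUSG00000023980) spans chromosome 17, 47483364 to 47502292, and Supt7l (ENSMUSG00000053134) spans chromosome 5, 31514564 to 31527807. The promoter of each is shown because the 4 genes lie at separate loci although their proteins assemble together. The RefSeq start-site sequences on GRCm38.p6, at chr7:105744309-105744438, chr2:10048580-10048709, chr17:47502262-47502391 and chr5:31526733-31526862, are given 5′ to 3′ on the gene's strand, from 100 bases before to 30 bases after the start. The Supt7l window lies wholly inside the GENCODE span of its gene, whose 5′ end is at 31527807. The windows of Taf10, Taf3 and Taf8 reach past the 5′ ends of theirs. Capitals mark matches, on either strand, to the motifs named after the sequences.
Taf10: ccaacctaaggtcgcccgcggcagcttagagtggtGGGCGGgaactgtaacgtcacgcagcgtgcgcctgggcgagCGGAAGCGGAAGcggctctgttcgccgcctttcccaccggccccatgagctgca
Taf3: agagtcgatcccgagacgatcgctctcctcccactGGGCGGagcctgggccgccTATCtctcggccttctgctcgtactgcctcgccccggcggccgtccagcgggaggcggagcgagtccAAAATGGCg
Taf8: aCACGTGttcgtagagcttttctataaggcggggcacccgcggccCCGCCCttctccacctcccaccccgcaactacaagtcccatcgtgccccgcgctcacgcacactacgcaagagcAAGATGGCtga
Supt7l: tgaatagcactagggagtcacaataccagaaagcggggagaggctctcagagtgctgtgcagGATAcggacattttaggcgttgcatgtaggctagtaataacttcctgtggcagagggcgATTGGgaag

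Motifs were searched on both strands of the full 300 bases, and the same search over 32817 promoters gave the background. No member promoter held TATAAA, the core of the TATA box, which was in 13.6% of all promoters. None held TGACGTCA, the CREB motif (1.79%). GGGCGG, the core bound by Sp factors, was in 3 of 4 members, all except Supt7l, and in 35.6% of all promoters. CGGAAG, a core of ETS factor motifs, was also in 3 of 4, all except Taf8 (16.9% of all promoters), with 2 matches in tandem in Taf10. AAGATGGC, in Taf8 (2.74%), and AAAATGGC, in Taf3 (1.54%), are forms of the YY1 motif, and both lie just after the start site. CCAAT was in Supt7l (37.4%) and CACGTG in Taf8 (7.15%). GATA stood once in each of the 4, but 57.9% of all promoters of this length hold it. The promoters of Taf10, Taf3 and Taf8 had a GC content of 65.7%, 66.7% and 58%, and that of Supt7l had 52.3%, with a median of 52.7% over all promoters. These matches describe letters in a window. The window of Supt7l lies inside the annotated gene and not at its annotated start, so its contrasts with the other members compare unlike positions.

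The reads assigned to genes numbered 18008391 to 43401474 per library. Counts of the 4 genes ran from 383 to 2079 reads, so that counting error alone was 2.19% to 5.11% of a value. Values are in CPM, counts per 1000000 reads of a library, scaled by TMM factors. Erythroid markers were present throughout, with 8 of 8 above 1 CPM in every library, and so were the 8 of 8 hepatocyte, macrophage, endothelial and mesenchymal markers and 6 of 6 megakaryocyte markers. Of 4 brain genes, 1 was above 1 CPM in every library, and their sum was 13.0 to 19.5 CPM in TAF10KO, 27.1 to 37.9 in TAF10HET and 31.3 to 31.6 in WT. The summed CPM of the erythroid markers was 7482 to 8832 in TAF10KO, 8468 to 14494 in TAF10HET and 9433 to 12620 in WT. Libraries stood apart by date code. In the fit with genotype and date code, 6536 of 15800 genes (41.4%) differed between the codes. The mesenchymal markers, all 8 of 8 lower on the second code, had a median log2 difference of -2.78.

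Taf10, the deleted gene, was lowest in the TAF10KO livers but present in both. The TAF10KO livers had 37.8 and 43.8 CPM. The TAF10HET livers had 78.1 CPM (lox/wt), 63.7 CPM and 63.0 CPM (both wt/ko), and the WT livers had 72.0 and 96.5 CPM. Both TAF10KO livers lay below every TAF10HET and WT liver. Of all genes tested, 14.5% had both TAF10KO livers below both WT livers, and 9.77% had them below every TAF10HET liver. The share of genes with both orderings at once was not counted. The remaining reads, 1393 and 1909 in the TAF10KO livers, come from a mixture of cells, and the sources used here do not give the deleted part, so the level does not measure how complete the deletion was. In bulk RNA, fewer cells of a type and less RNA per cell cannot be told apart.

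The partners did not show the pattern of Taf10. Taf3 stood at 23.5 and 24.2 CPM in TAF10KO, at 19.8, 29.1 and 30.7 CPM in TAF10HET, and at 21.1 and 29.1 CPM in WT. The TAF10KO values lay inside the range of both other groups. Taf8 stood at 32.2 and 36.5 CPM in TAF10KO, at 29.6, 41.3 and 37.0 CPM in TAF10HET, and at 32.5 and 40.3 CPM in WT. All 3 groups overlapped, and in each group the livers of the second date code were the higher ones. Supt7l stood at 24.1 and 24.7 CPM in TAF10KO, at 20.5, 24.0 and 23.5 CPM in TAF10HET, and at 24.2 and 24.96 CPM in WT. It was the steadiest of the 4. Its highest library was 1.22 times its lowest, against 1.40 times for Taf8, 1.55 times for Taf3 and 2.55 times for Taf10.

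**Figure D1:**
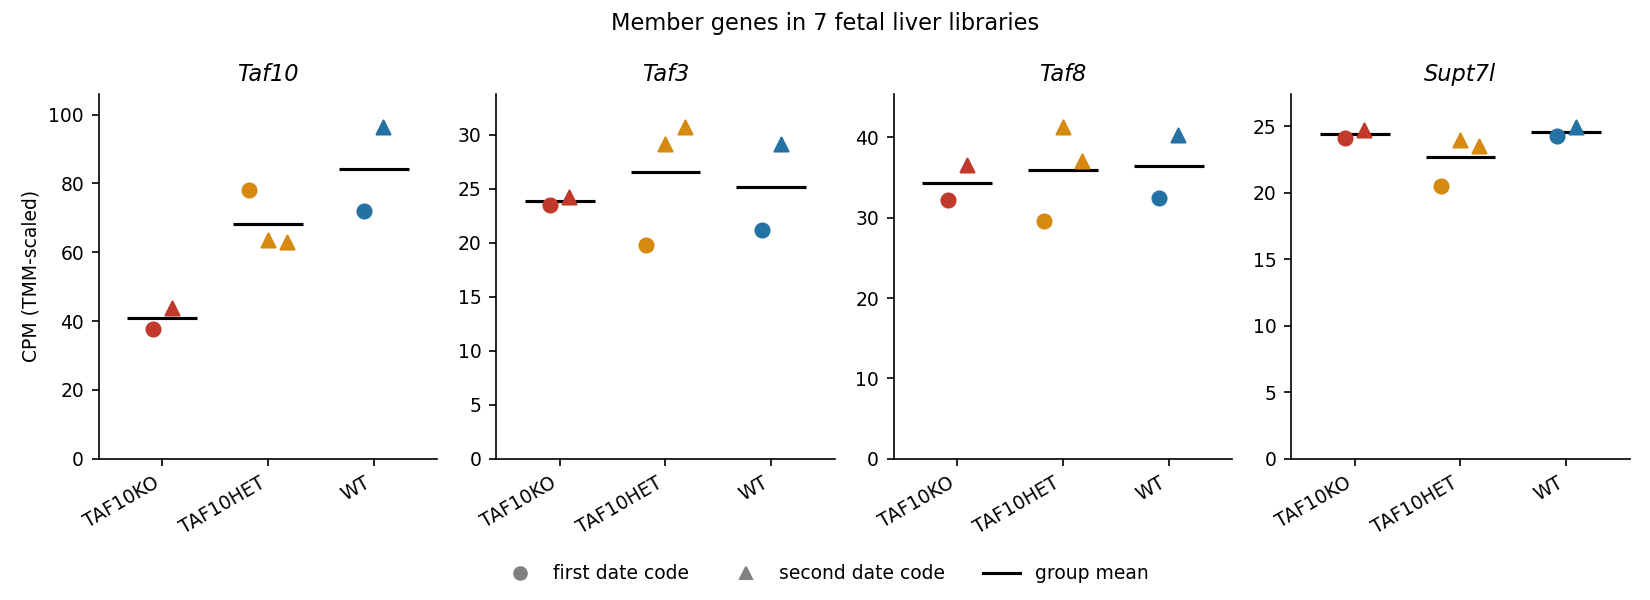
CPM of Taf10, Taf3, Taf8 and Supt7l (y axis of each panel, from 0) in the 7 libraries by group, with circles for the first date code, triangles for the second and black lines for group means. Taf10 was at 37.8 and 43.8 CPM in TAF10KO and at 72.0 and 96.5 CPM in WT, while the 3 partners overlap between these groups. Over all 7 libraries Supt7l lay between 20.5 and 24.96 CPM.

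Between TAF10KO and WT, Taf10 averaged 40.8 ± 4.26 and 84.2 ± 17.3 CPM (SD, n = 2 each). The log2 difference in edgeR's quasi-likelihood fit with the date code as a block was -1.04 (SE 0.168, 95% interval -1.44 to -0.64, Benjamini-Hochberg adjusted p = 0.0542), about 2.06 times less. It missed the threshold of 0.05, and it did so by little: Taf10 ranked 120 of 15800 genes by p, while 96 genes (0.608%) were called, 76 of them higher (0.481%) and 20 lower (0.127%). Over 14 alternatives the adjusted p ran from 5.37e-18, with no filter on low counts, to 0.88, without the block. The direction was the same on both date codes, with -0.93 on the first and -1.14 on the second. Without the block the difference was -1.04 (adjusted p = 0.88), and 0 genes were called by edgeR, with 729 (4.61%) at an unadjusted p under 0.05. DESeq2 with the same terms gave -1.04 (adjusted p = 5.52e-06) and called 581 genes. The number called by edgeR was 0 without WT replicate 1 or WT replicate 2, 13 without TAF10HET replicate 3 and 31 without TAF10HET replicate 2. It was 1282 without TAF10KO replicate 1, 529 without TAF10KO replicate 2 and 887 without TAF10HET replicate 1.

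In the same comparison 0 of the 3 partner genes were called, where 0.608% of all genes tested were. Taf10 was not called either, so the count does not set the partners apart from it. The 95% intervals of this fit concern whole livers and do not bound a difference within a cell type. Supt7l, the SAGA partner, had a log2 difference of -0.01 (95% interval -0.24 to 0.22, adjusted p = 0.968). Taf8, the TFIID partner that carries TAF10 into the complex, had -0.08 (-0.31 to 0.16, adjusted p = 0.722). Taf3, the other TFIID partner, had -0.05 (-0.38 to 0.28, adjusted p = 0.887). The Supt7l difference was alike on both date codes, at -0.01 and -0.02. That of Taf3 was 0.15 on the first code and -0.27 on the second, each between 2 single libraries. A log2 difference of the size found for Taf10 lies outside all 3 intervals.

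Between TAF10HET and WT, Taf10 averaged 68.3 ± 8.50 (n = 3) and 84.2 ± 17.3 CPM (SD, n = 2), and the fit with the date block gave a log2 difference of -0.31 (95% interval -0.66 to 0.05, adjusted p = 0.999). The value depended on single libraries: it was -0.56 without TAF10HET replicate 1, -0.53 without WT replicate 1 and -0.03 without WT replicate 2. On the first date code, the lox/wt liver with Cre had 78.1 CPM and the WT liver 72.0 CPM, a log2 difference of 0.12. On the second, the wt/ko livers had 63.7 and 63.0 CPM and the WT liver 96.5 CPM, a difference of -0.61. The interaction of genotype and date code, the second difference minus the first, was -0.72. An edgeR test of it gave adjusted p = 0.0138 and called 102 of 15800 genes (0.646%), but its 1 residual degree of freedom came from the 2 wt/ko livers alone. The WT livers and the lox/wt liver were single libraries on their codes, so this p does not support a difference between the codes. Allele type and date code cannot be told apart, because the lox/wt liver was the only TAF10HET liver of the first code. For TAF10KO against WT, with 1 library a group on each code, the interaction was -0.21 for Taf10.

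Epor, the receptor gene that drives the Cre, stood at 83.1 and 99.2 CPM in TAF10KO, 156, 139 and 125 in TAF10HET, and 158 and 239 in WT (TAF10KO against WT -1.11, adjusted p = 0.0618). Its split by date code was looked at after its values were seen. Its TAF10HET minus WT difference was -0.02 on the first date code and -0.85 on the second, between the same libraries and with no test that bears on it. For the partners the interaction was 0.13 for Taf3, 0.10 for Taf8 and 0.17 for Supt7l. In the fit over both codes, TAF10HET against WT gave 0.01 for Taf3 (95% interval -0.30 to 0.32), -0.07 for Taf8 (-0.29 to 0.15) and -0.14 for Supt7l (-0.35 to 0.08), each with adjusted p = 0.999. Only 1 gene of all those tested (0.00633%) was called in this comparison. All 3 TAF10HET livers were below both WT livers for Supt7l, as were 4.95% of all genes tested.

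Between TAF10KO and TAF10HET, which both carry the Cre, Taf10 averaged 40.8 ± 4.26 (n = 2) and 68.3 ± 8.50 CPM (SD, n = 3). Both TAF10KO livers were below all 3 TAF10HET livers, an ordering that 9.77% of the genes tested also showed. The log2 difference was -0.73 (SE 0.156, 95% interval -1.10 to -0.37, adjusted p = 0.0782), while 254 genes (1.61%) were called, 182 higher (1.15%) and 72 lower (0.456%). It was -1.04 against the lox/wt liver of the first date code and -0.53 against the wt/ko livers of the second. Without TAF10HET replicate 1 it was -0.48 (adjusted p = 0.0234), and without the block -0.74 (adjusted p = 0.642), with 0 genes called by edgeR and 854 (5.41%) at an unadjusted p under 0.05. DESeq2 called 690 genes. The number called by edgeR was 16 to 42 without TAF10HET replicate 2, TAF10HET replicate 3 or either WT library, 486 without TAF10HET replicate 1, 643 without TAF10KO replicate 2 and 1203 without TAF10KO replicate 1.

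The partners again had 0 of 3 called between TAF10KO and TAF10HET, where 1.61% of all genes tested were called and Taf10 was not. Supt7l stood at 0.13 (95% interval -0.08 to 0.34, adjusted p = 0.523), Taf8 at -0.01 (-0.23 to 0.21, adjusted p = 0.979) and Taf3 at -0.06 (-0.37 to 0.25, adjusted p = 0.86). Both TAF10KO livers were above all 3 TAF10HET livers for Supt7l, and so were 10.3% of all genes tested. The difference of Taf3 was 0.24 on the first date code and -0.30 on the second, and that of Taf8 was 0.12 and -0.10.

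**Figure D2:**
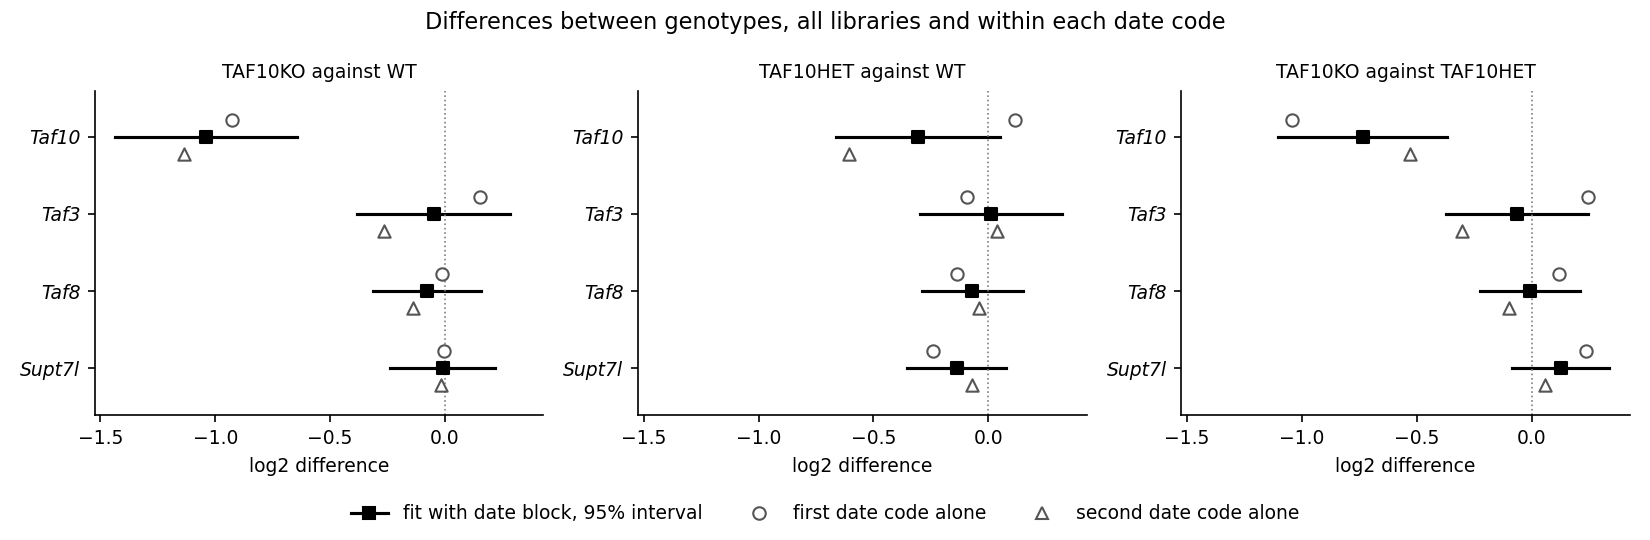
Log2 differences of the 4 genes (x axis) in 3 comparisons of genotype, with squares and lines for the fit with the date block and its 95% interval, open circles for the first date code alone and open triangles for the second. The interval of Taf10, not adjusted for the number of genes, excludes 0 in TAF10KO against WT (-1.44 to -0.64) and in TAF10KO against TAF10HET (-1.10 to -0.37), and those of the partners hold 0 in all 3 comparisons.

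Reads of Taf10 were also set against those of its partners within each library, without scaling by gene length. Per read of Taf3, Taf8 and Supt7l together, there were 0.474 and 0.513 reads of Taf10 in the TAF10KO livers, 1.12, 0.674 and 0.691 in the lox/wt and the 2 wt/ko TAF10HET livers, and 0.924 and 1.02 in the WT livers. The TAF10KO livers were lowest, and the wt/ko livers lay between them and WT. The ratio needs no scaling between libraries, since each is formed inside 1 library. To Taf8 alone it was 1.18 and 1.20 in TAF10KO, 2.64, 1.54 and 1.70 in TAF10HET, and 2.21 and 2.40 in WT. To Supt7l alone it was 1.57 and 1.78 in TAF10KO, 3.81, 2.66 and 2.68 in TAF10HET, and 2.97 and 3.86 in WT. To Taf3 alone it was 1.61 and 1.81 in TAF10KO, 3.94, 2.18 and 2.05 in TAF10HET, and 3.41 and 3.31 in WT. The summed CPM of the partners also varied, at 69.9 in the lox/wt liver and 94.4 and 91.2 in the wt/ko livers. The ratio therefore does not follow Taf10 alone. These ratios describe the libraries and were not tested.

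**Figure D3:**
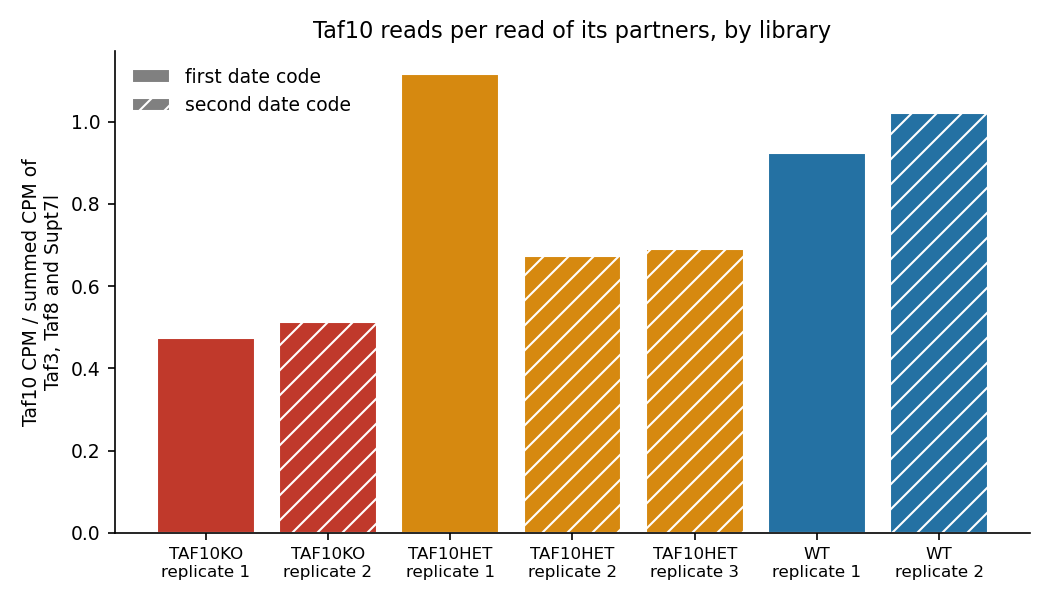
Taf10 CPM divided by the summed CPM of Taf3, Taf8 and Supt7l (y axis, from 0) in each of the 7 libraries, with hatched bars for the second date code. The 2 TAF10KO bars reach 0.474 and 0.513, the wt/ko livers 0.674 and 0.691, and the lox/wt liver and both WT livers 0.924 to 1.12.

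Levels of different genes were compared per kilobase of exon. By merged exon length, Taf10 was first in 7 of 7 libraries, with a median of 13.9 CPM per kilobase (8.25 to 21.04). Taf8 was second in all of them, with a median of 8.04 (6.52 to 9.11). Taf3, with a median of 3.79 (3.10 to 4.81), and Supt7l, with 3.45 (2.93 to 3.57), held the third and the fourth place in an order that varied between libraries. The length used matters for this order. Per kilobase of the principal coding transcript, a choice added after the data were seen, Taf10 was first in 5 of 7 libraries and Taf8 in 2, the TAF10KO livers. Of the bases of that transcript, 49.2% are shared with exons of another gene for Taf10, against 0% for Taf8. The same whole-gene counts divided by only the bases that no other gene shares put Taf10 first in 7 of 7. The median was then 29.3 CPM per kilobase against 13.1 for Taf8. Reads over those bases were not counted apart, and the Taf10 count may hold reads from shared bases. With all bases of the transcript, Taf10 had a median of 14.9 CPM per kilobase, Taf8 13.1, Supt7l 8.96 and Taf3 5.06.

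**Figure D4:**
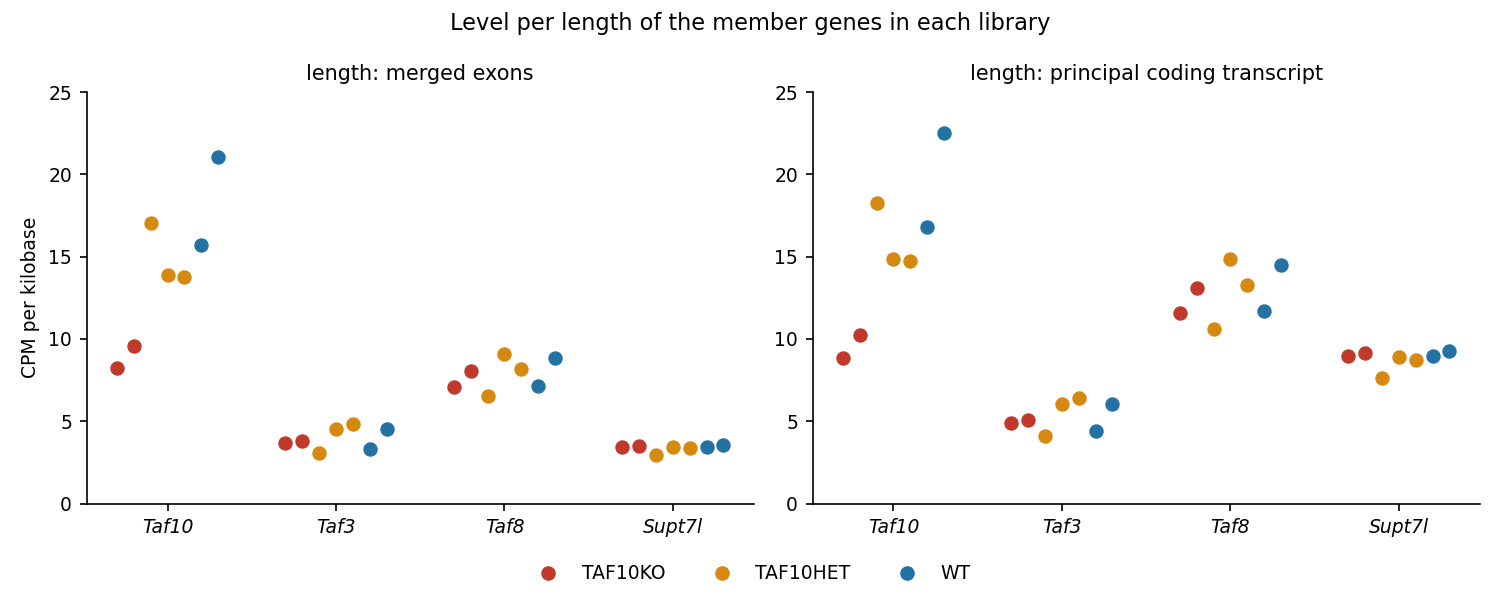
CPM per kilobase (y axis, from 0) of the 4 genes in each library, coloured by group, with length taken as merged exons on the left and as the principal coding transcript on the right. Taf10 is highest in all 7 libraries on the left, whereas Taf8 lies above Taf10 in the 2 TAF10KO livers on the right. The length on the right includes bases shared with another gene, 49.2% for Taf10. With the same counts divided by the unshared bases alone, which is not drawn, Taf10 was highest in all 7 libraries.

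The exons of Taf10 overlap those of a neighbour. Taf10 and Ilk, the integrin-linked kinase gene on the opposite strand (chromosome 7, 105736592 to 105742925), overlap at their ends, and 2106 of the 4584 merged exon bases of Taf10 (45.9%) are also exons of Ilk. Of the exon bases of Ilk, 89.7% are shared with other genes, which leaves 283. Reads that touch both genes could be assigned to neither, and 3.98% to 5.94% of all reads were set aside as ambiguous. Ilk received 9 and 11 reads in TAF10KO, 5, 4 and 5 in TAF10HET, and 6 and 6 in WT. Its level and any share of its reads in the Taf10 count were therefore not measurable here. The whole-gene count of Taf10 divided by its unshared merged exon bases had a median of 25.7 CPM per kilobase. Taf10 was then first in 7 of 7 libraries, but reads over those bases were not counted apart. Shared exon bases were fewer for the partners, at 7.65% for Taf3 (127 bases with Gm13262 and 362 with C630004M23Rik), 0.901% for Supt7l and 0% for Taf8.

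Neither of the genes beside Taf10 had both TAF10KO livers below every TAF10HET and WT liver. Tpp1, a lysosomal protease gene that ends 450 bases before the start of Taf10 in the direction of transcription, stood at 97.8 and 97.5 CPM in TAF10KO, 77.4, 94.8 and 90.5 in TAF10HET, and 85.7 and 90.3 in WT. Both TAF10KO livers lay above every TAF10HET and WT liver. Of all genes tested, 15.2% had both TAF10KO livers above both WT livers, and 10.3% had them above every TAF10HET liver. The log2 difference of TAF10KO from WT in Tpp1 was 0.15 (adjusted p = 0.415). Rrp8, a ribosomal RNA methyltransferase gene on the other side, had 33.2 and 35.1 CPM in TAF10KO. It had 33.2, 39.2 and 36.4 CPM in TAF10HET, and 36.4 and 36.9 CPM in WT. Both TAF10KO livers lay below both WT livers, as for 14.5% of all genes tested. The log2 difference of TAF10KO from WT in Rrp8 was -0.11 (adjusted p = 0.579). Slc4a1ap, which shares 63 exon bases with Supt7l, had 0.03 (adjusted p = 0.938).

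The other subunits of both complexes lay closer to 0 than Taf10. The lists share Taf9, Taf9b, Taf10 and Taf12. In TFIID, 0 of 17 genes were called between TAF10KO and WT, where 0.608% of all 15800 genes were. Of the 17, 5 lay above 0 and 12 below, with a median log2 difference of -0.05, against 0.03 over all genes. Without Taf10 the range was -0.40 to 0.28. Its lower end was Taf7, a TFIID subunit that holds back the acetyltransferase activity of TAF1, at 29.7 and 27.7 CPM in TAF10KO, 35.9, 34.1 and 36.5 in TAF10HET, and 37.6 and 38.1 in WT (adjusted p = 0.0936). Taf7 was singled out after its values were seen. In SAGA, 0 of 24 genes were called, with 12 above 0 and 12 below and a median of 0.04. Over both lists the number called was 0 with all libraries, and 2 without TAF10KO replicate 1, 1 without TAF10KO replicate 2 and 3 without TAF10HET replicate 1. The range without Taf10 was -0.27 for Taf12, a histone-fold subunit of both complexes (adjusted p = 0.141), to 0.38 for Trrap, the largest SAGA subunit (adjusted p = 0.149), also named after its value was seen. The 11 genes of the other histone-fold pairs had a median of -0.10, with 4 above 0 and 7 below.

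Between TAF10KO and TAF10HET, 1 of 24 SAGA genes was called lower and 0 higher, while 0.456% of all genes were called lower and 1.15% higher. That gene was Eny2, a small subunit of the SAGA deubiquitinase module and of the mRNA export complex TREX-2, at 41.9 and 33.4 CPM in TAF10KO, 56.4, 46.5 and 45.2 in TAF10HET, and 49.6 and 35.2 in WT (TAF10KO against TAF10HET -0.45, SE 0.0802, adjusted p = 0.043). All 3 TAF10HET livers exceeded both TAF10KO livers, and WT replicate 2 lay among the low ones. That liver is of the second date code, on which Eny2 was lower by 0.37 (adjusted p = 0.00502). Against WT, Eny2 stood at -0.16 in TAF10KO (adjusted p = 0.369) and at 0.29 in TAF10HET (adjusted p = 0.999), neither called. No TFIID gene of 17 was called, with a median of -0.01. Of the other histone-fold genes Taf6l, of SAGA, had the smallest adjusted p (-0.28, adjusted p = 0.194). The number of called genes over both lists was 0 when either WT library or a wt/ko library (TAF10HET replicates 2 and 3) was left out, 2 without TAF10KO replicate 1 and likewise without the lox/wt library, and 3 without TAF10KO replicate 2, leave-outs that were added after the data were seen for this count. Between TAF10HET and WT, where 0.00633% of all genes were called, 0 of 17 TFIID and 0 of 24 SAGA genes were, with medians of -0.06 and 0.01.

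**Figure D5:**
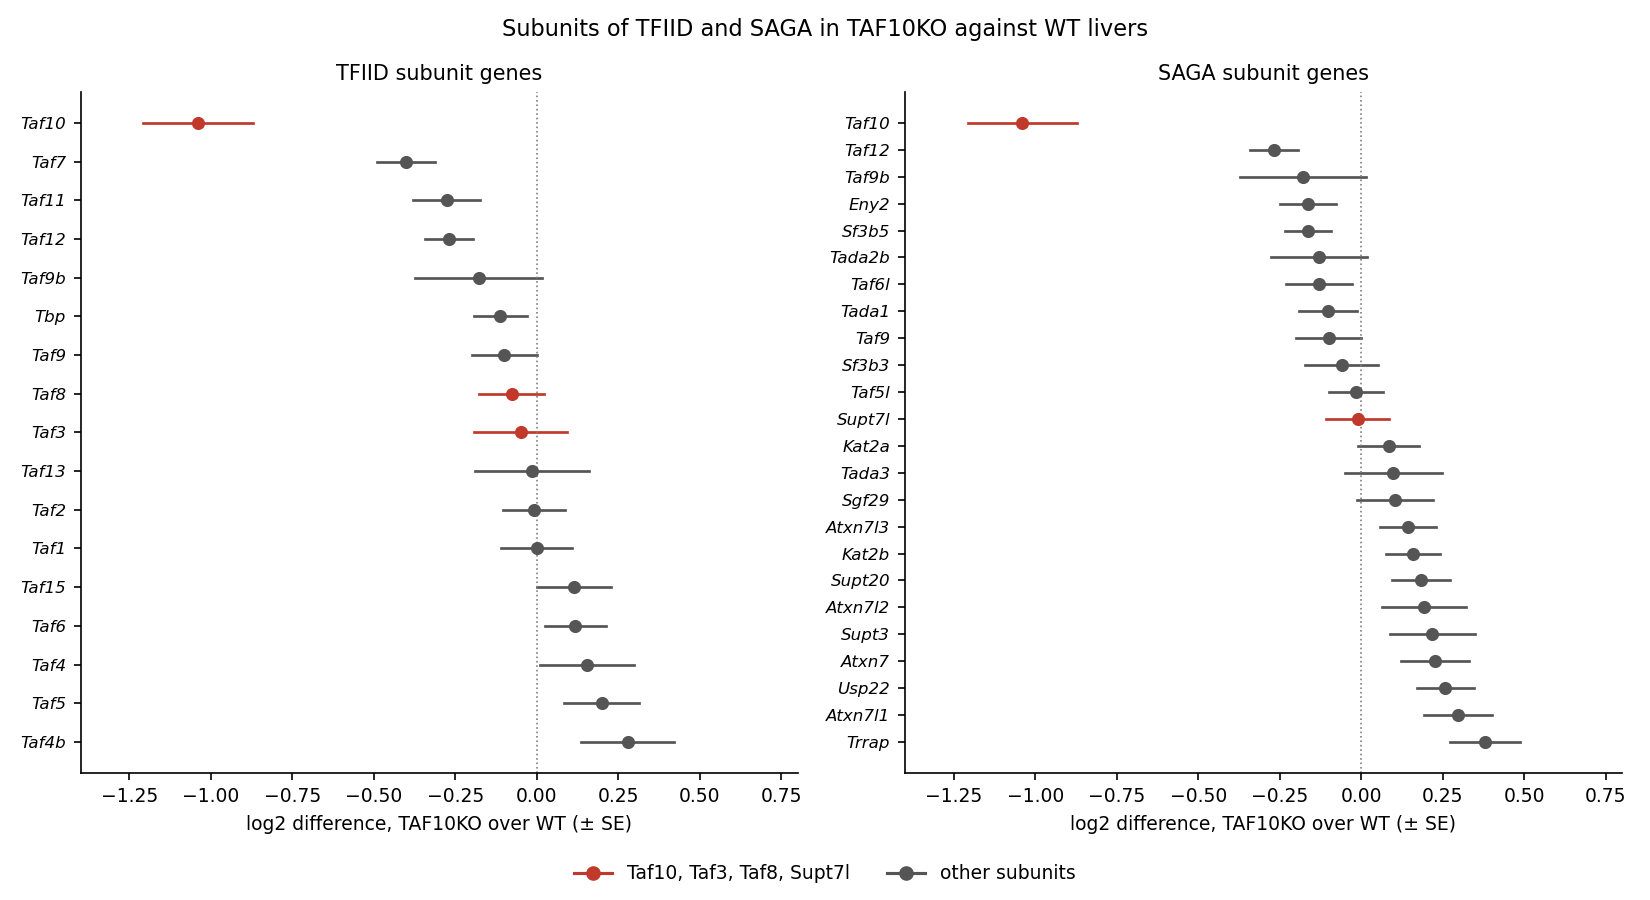
Log2 difference of TAF10KO over WT (x axis) with its standard error for 17 TFIID genes on the left and 24 SAGA genes on the right, with the 4 genes described here in red. Taf10 lies at -1.04, and all other subunits lie between -0.40 and 0.38.

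Across date codes, 2 of the 4 genes differed, a share close to the 41.4% of all genes. Taf3 rose on the second code by 0.38 on the log2 scale (SE 0.112, adjusted p = 0.0302) and Taf8 by 0.31 (SE 0.0792, adjusted p = 0.019). Both were higher in all 3 groups: by 0.04 in TAF10KO, 0.59 in TAF10HET and 0.46 in WT for Taf3, and by 0.18, 0.40 and 0.31 in the same groups for Taf8. Supt7l stood at 0.10 (adjusted p = 0.303) and Taf10 at 0.07 (adjusted p = 0.697). Taf10 was higher on the second code in TAF10KO (0.21) and in WT (0.42) and lower in TAF10HET (-0.30). In TFIID 5 of 17 genes rose on the second code and 0 fell (18.7% and 22.7% of all genes), with a median of 0.14. They included Taf12 (0.32, adjusted p = 0.00475) and its partner Taf4 (0.40, adjusted p = 0.0272). In SAGA 10 of 24 rose and 2 fell, with a median of 0.21. Usp22, the deubiquitinase, fell by 0.56 (adjusted p = 0.000848), Kat2b, an acetyltransferase, rose by 0.41 (adjusted p = 0.00282), Sf3b5 rose by 0.32 (adjusted p = 0.0041) and Supt3, a histone-fold subunit, by 0.40 (adjusted p = 0.0193). The number called over both lists, 16, was 3 without WT replicate 1, 4 without WT replicate 2, 7 without TAF10HET replicate 2 or 3 and 8 without TAF10HET replicate 1. Erythroid markers moved with the code as well, with 7 of 8 higher on the second and a median of 0.54. Their part in the differences of Taf3 and Taf8 was not tested. The call of Taf3 was lost without any one of TAF10HET replicates 1, 2 or 3 and WT replicates 1 or 2 (adjusted p up to 0.156), and that of Taf8 without TAF10HET replicate 1 or 2 or WT replicate 1 or 2 (up to 0.104).

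Between TAF10KO and WT, where 0.127% of all genes were called lower and 0.481% higher, 1 of 8 erythroid markers was lower and 0 higher, with a median of -0.31. Of the 8 endothelial markers, 2 were higher (median 0.49). The summed CPM of that list on the first date code was 514 in TAF10KO, 354 in TAF10HET and 382 in WT. On the second it was 261 in TAF10KO, 223 and 200 in TAF10HET, and 196 in WT. Hepatocyte markers had a median of -0.25 and macrophage markers of -0.43, with 0 of 8 called in each, and mesenchymal and megakaryocyte markers had 0.43 over 8 and 0.23 over 6, also with 0 called. Of the 4 brain genes 1 was tested, at -0.96, and it was not called. Between TAF10KO and TAF10HET, 1.15% of all genes were called higher and 0.456% lower. There, 4 of 8 endothelial markers were higher and 0 lower. Lower were 1 of 8 erythroid and 1 of 8 macrophage markers, with 0 higher in these 2 lists. The part of all these markers in the Taf10 differences was not tested. Gata1 stood at 185.8 and 254 CPM in TAF10KO, 190.7, 301 and 279 in TAF10HET, and 193 and 291 in WT, with a log2 difference of TAF10KO from WT of -0.12 (adjusted p = 0.487).

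The genes most like each member were ranked by the Pearson correlation of log2 CPM, centred within each date code, over the 7 libraries. These values describe 11208 candidate genes, which share the 7 libraries and their scaling, and carry no test. For Taf10 they were Syf2, a splicing factor gene (r = 0.998), Prkrip1 (0.996), Gstz1, an enzyme gene of tyrosine breakdown (0.995), H3f3a, a gene of the replacement histone H3 with close copies in the genome that could share its reads (0.994), and Arpc5l, of the actin-branching complex (0.994). Their differences of TAF10KO from WT were smaller than that of Taf10, between -0.27 for Syf2 and -0.44 for H3f3a, and 0 of 5 were called. High values were common, since 453 candidates passed r = 0.9 with Taf10.

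For Taf3 those given here were Ints3, of the Integrator complex (r = 0.994), Gsk3b, a kinase (0.992), Abcf1 (0.99) and Cep250, of the centrosome (0.989). For Taf8 they were Smad2, a mediator of TGF-beta signals (0.984), Cbs, of cysteine synthesis (0.981), Trim14 (0.976), Nek4, a kinase (0.968), and Kctd9 (0.962). For Supt7l they were Nup88, of the nuclear pore (0.992), Ctnnbl1, of the spliceosome (0.974), Zfp983 (0.97), Luc7l2, a splicing factor (0.969), and Scyl2 (0.967). Among the 4 genes themselves r was 0.57 for Taf8 with Supt7l, 0.53 for Taf3 with Taf8 and 0.26 for Taf3 with Supt7l. With Taf10 it was 0.18 for Taf8, 0.02 for Taf3 and -0.33 for Supt7l.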

How the data were processed

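The files hold read counts per Ensembl gene, deposited by the authors as whole numbers without normalisation. TopHat2 2.0.8, DESeq2 and the build mm10 are named in the submitters' processing notes, with no counter, annotation or strand setting named there. Of all counted reads, 6.81% to 10.1% lay in no gene and 14.1% to 22.2% aligned to several places, and these stayed out of the gene counts. Symbols came from GENCODE M21, which matched 37607 of 39017 identifiers.

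Libraries were grouped by labelled genotype, and no labels state that livers came from different litters, so p-values measure only the spread between these samples. Counts of replicates differed by far more than sampling noise. Genes were tested with edgeR 4.0.16 in R 4.3.3 (filterByExpr, TMM, robust quasi-likelihood F test, two-sided, Benjamini-Hochberg over 15800 genes), with genotype and date code as terms. The date code served as a block because the libraries were to be compared by genotype and date code, and the titles give the code. Deviations from group means, looked at beside the fit, correlated at 0.40 to 0.74 in 8 pairs of libraries that share a code. In 8 pairs that do not they correlated at -0.74 to -0.40, but in groups of 2 libraries deviations mirror each other. The 3 genotype comparisons share libraries. The SE is the log2 difference divided by the root of F. Log2 CPM used a prior count of 2. DESeq2 1.42.0, other factors and filters, each library left out, and the fit without the block were alternatives. Motifs were exact matches. The scripts were tested on simulated data.

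Members, gene lists and the date block were chosen with earlier results of these data known. Named genes were the 4 members, Epor, Gata1, genes beside or over a member, called subunits, and the 5 genes most like each member among genes whose log2 CPM averaged 1 or more, leaving out predicted, pseudogene and sex-linked symbols. Other named genes were chosen after their values were seen. One gene that the rule names is not reported here.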

Additional observations from a re-analysis of the deposited data

Results flagged for a closer look

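The difference of TAF10HET from WT in Taf10 had opposite signs on the 2 date codes. The second minus the first code gave -0.72 on the log2 scale (edgeR interaction, adjusted p = 0.0138), with 0.12 for the lox/wt liver on the first code and -0.61 for the wt/ko livers on the second. The 1 residual degree of freedom came from the 2 wt/ko livers, and each other arm was a single library, so the p does not support a difference between the codes. Allele type cannot be told apart from date code.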

How the results depend on the processing

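The date code is the replicate block. Without it the Taf10 difference of TAF10KO from WT was -1.04 (edgeR adjusted p = 0.88), and 0 genes were called in each of the 3 genotype comparisons. Other numbers of called genes were, for TAF10KO against WT, 581 with DESeq2, 1399 with no filter and 553 with only the groups compared, and 0 to 1282 with 1 library left out. For TAF10HET against WT they were 9, 289 and 7 under the same settings and 0 to 13 with 1 left out, and for TAF10KO against TAF10HET 690, 1498 and 26, and 16 to 1203. For the date code they ran from 3206 to 7303 with 1 left out.

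Taf10 stayed lower in TAF10KO than in WT under all 14 alternatives. It passed the threshold with DESeq2 (-1.04), with no filter (-0.997, adjusted p = 5.37e-18), with only the groups compared (-1.03, adjusted p = 4.75e-05) and without TAF10HET replicate 1, and lay between -1.29 and -0.77 with 1 library left out. Against TAF10HET it passed with DESeq2 (-0.74, adjusted p = 0.00111), with no filter (-0.70, adjusted p = 3.38e-10) and without TAF10HET replicate 1 (-0.48, adjusted p = 0.0234). It lay between -0.88 and -0.48 with 1 library left out. The fit with no filter called many more genes than the main fit in every genotype comparison, so passing there carries little weight. The difference of TAF10HET from WT in Taf10 lay between -0.56 and -0.028 with 1 library left out. The date difference of Taf10 lay between -0.11 and 0.32.

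Differences near 0 turned sign. With no filter Supt7l stood at 0.029 (TAF10KO against WT) and Taf8 at 0.029 (TAF10KO against TAF10HET), and with only the groups compared Taf3 stood at -0.016 (TAF10HET against WT). With 1 library left out, TAF10KO against WT ran from -0.30 to 0.15 for Taf3 and from -0.059 to 0.021 for Supt7l, TAF10HET against WT from -0.041 to 0.14 for Taf3, and TAF10KO against TAF10HET from -0.28 to 0.17 for Taf3 and from -0.085 to 0.059 for Taf8. For the date code Taf3 was 0.32 with at least 5 CPM in 2 libraries (adjusted p = 0.0526) and 0.24 to 0.50 with 1 left out, and Taf8 was 0.24 to 0.33. The causes of these shifts were not tested. Depth limits the members little, but 2 or 3 livers a group limit every test.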
